A study of Homo sapiens with 2 samples.

Results

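The glutathione S-transferases described here are 10 genes: GSTA1, GSTA2, GSTA4, GSTM1, GSTM2, GSTM3, GSTP1, GSTK1, MGST1 and MGST2. They were chosen by gene symbol in a table of 20802 amplicons, and all 10 were found. Their values were not part of that rule, but earlier results of these data were known when the genes were chosen. Transcripts were measured in 2 human prostate cancer lines, MDA Pca 2b, which came from a metastasis to bone, and LNCaP, which came from a metastasis to a lymph node. Each line had 1 library, made by amplifying 1 short amplicon per gene from 10 ng of total RNA. The labels give both lines as WT and in a single batch, and name no agent or allele. The study set the lines against each other for the expression of oncogenes and tumour suppressor genes. Because neither line was measured more than once, the spread between cultures is unknown, and every difference below is a difference between these libraries.

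Glutathione S-transferases join the tripeptide glutathione to reactive electrophiles, such as drugs, carcinogens and products of lipid peroxidation, and the conjugates are then pumped out of the cell. The soluble enzymes fall into classes named by Greek letters, which work as dimers in the cytosol, while the kappa enzyme sits in mitochondria and peroxisomes. The microsomal enzymes are membrane proteins of a separate origin. In the prostate the family is best known through GSTP1, the pi class enzyme of basal cells, whose promoter is a CpG island that is methylated in most prostate cancers. DNA methylation was not measured here.

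GSTA1 and GSTA2 lie in the alpha cluster on chromosome 6 and are close copies, so the 250 bases before each annotated start are shown side by side, followed by those of GSTP1. The sequences are from RefSeq on GRCh38.p14, run 5′ to 3′ on the strand of the gene, and span chr6:52803817-52804066 (minus strand) for GSTA1, chr6:52763476-52763725 (minus strand) for GSTA2 and chr11:67583562-67583811 (plus strand) for GSTP1. Capitals mark the positions that differ between GSTA1 and GSTA2, and the CpG dinucleotides in GSTP1.
GSTA1: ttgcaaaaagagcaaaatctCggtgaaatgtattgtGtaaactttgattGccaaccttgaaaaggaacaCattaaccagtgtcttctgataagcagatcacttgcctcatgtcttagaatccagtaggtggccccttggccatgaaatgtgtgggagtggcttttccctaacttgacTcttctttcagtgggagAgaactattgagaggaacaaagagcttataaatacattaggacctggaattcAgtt
GSTA2: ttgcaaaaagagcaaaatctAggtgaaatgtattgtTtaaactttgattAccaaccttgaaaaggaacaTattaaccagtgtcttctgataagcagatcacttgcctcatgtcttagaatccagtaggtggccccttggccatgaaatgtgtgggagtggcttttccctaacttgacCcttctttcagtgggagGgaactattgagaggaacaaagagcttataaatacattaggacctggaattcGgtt
GSTP1: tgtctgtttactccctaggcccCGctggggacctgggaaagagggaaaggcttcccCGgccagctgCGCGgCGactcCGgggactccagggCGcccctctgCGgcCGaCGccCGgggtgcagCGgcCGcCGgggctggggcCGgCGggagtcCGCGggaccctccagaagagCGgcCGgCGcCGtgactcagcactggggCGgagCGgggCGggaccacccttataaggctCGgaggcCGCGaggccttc
The GSTA1 and GSTA2 windows were the same at 243 of 250 positions (97.2%). The GSTP1 window held 28 CpGs and 74.8% G and C, and 85.9% of the 35116 promoter windows in the table held as many CpGs or fewer.

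The libraries held 8558660 counts for MDA Pca 2b and 10778061 for LNCaP, and 13577 amplicons in MDA Pca 2b and 13726 in LNCaP had at least 10 counts. Small nucleolar RNAs took 6.18% of the MDA Pca 2b counts (exact Clopper-Pearson 95% interval 6.16 to 6.19) and 1.48% of the LNCaP counts (1.47 to 1.49). Scaling without them moved the median log2 ratio of all measured genes by 0.0031 and gave ratios of 0.187 for GSTA1 and 0.363 for MGST1, the most distant and the most read of the members. The 8 markers of prostate luminal cells analysed here, KLK3 and HOXB13 among them, had 1647 to 15559 counts in MDA Pca 2b and 1279 to 10421 in LNCaP. Among markers of other cells, PTPRC, CD3E, LYZ, CDH5, KDR, TEK and COL1A2 were at 0 in both libraries. The 6 leukocyte markers summed to 47.1 CPM in MDA Pca 2b and 17.0 CPM in LNCaP, from CD68 (251 counts in MDA Pca 2b, 116 in LNCaP) and CD14 (149 in MDA Pca 2b, 68 in LNCaP). The 6 fibroblast markers summed to 3.76 CPM in MDA Pca 2b and 14.1 CPM in LNCaP, mostly COL1A1 (24 counts in MDA Pca 2b, 132 in LNCaP). The 5 endothelial markers summed to 4.35 CPM in MDA Pca 2b and 3.51 CPM in LNCaP, with 36 counts of PECAM1 in MDA Pca 2b and 18 in LNCaP, and 1 of VWF in MDA Pca 2b and 20 in LNCaP. The part of these genes in the values below was not tested. The hepatocyte genes, listed because liver is the main site of alpha class enzymes, summed to 39.2 CPM in MDA Pca 2b and 35.2 CPM in LNCaP. APOB gave 37.7 CPM of this in MDA Pca 2b and 27.5 CPM in LNCaP, TTR gave 0.587 CPM in MDA Pca 2b and 7.75 CPM in LNCaP, and SERPINA1 was at 0 in both.

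Of the 10 genes, 6 had at least 10 counts in a library and are called measured, and these 6 passed that minimum in both libraries. All 6 had fewer scaled counts in MDA Pca 2b than in LNCaP; in RNA from whole cultures, fewer expressing cells and less RNA per cell cannot be told apart. A gene was called apart when its 95% counting interval lay wholly beyond 2-fold, and GSTA1, MGST1 and GSTM3 were called lower in MDA Pca 2b by this rule. None of the 6 was called higher. Over all 14418 measured genes, 24.1% were called apart, 13.2% lower and 10.9% higher in MDA Pca 2b, and 50.1% had a ratio below 1. The median log2 ratio was -1.09 over the 6 members and -0.0018 over all measured genes. The other 4 members, GSTA2, GSTM1, GSTM2 and GSTP1, had 2 counts or fewer in each library.

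**Figure D1:**
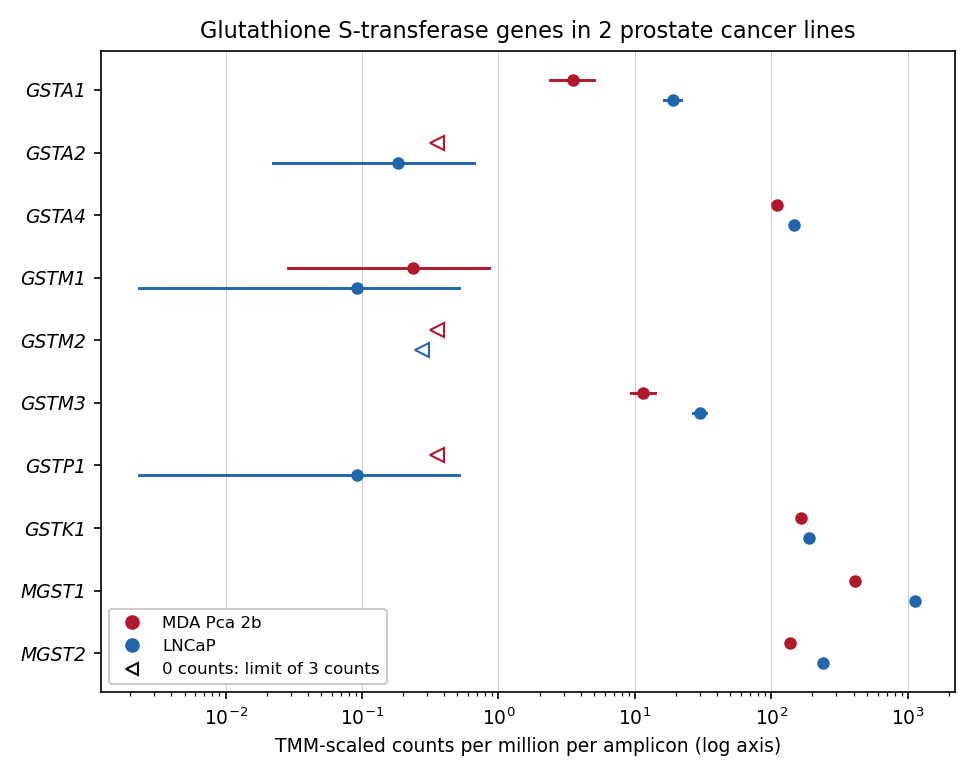
Scaled counts, as CPM on a log axis, of each member in MDA Pca 2b (red, upper) and LNCaP (blue, lower), with exact 95% Poisson intervals for counting error; open triangles mark the level of 3 counts for a library at 0. The 6 measured genes span 3.52 to 409 CPM in MDA Pca 2b and 18.9 to 1127 CPM in LNCaP, while the other 4 lie at or near the limit of counting.

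Among the microsomal enzymes, and among all 10 members, MGST1 came first by reads in both libraries. MGST1, a detoxifying peroxidase and transferase of the endoplasmic reticulum and mitochondrial outer membrane, had 3477 counts in MDA Pca 2b and 12214 in LNCaP. This was 409 CPM (reads set to one library size) in MDA Pca 2b against 1127 CPM in LNCaP, a ratio of 0.363 (95% interval 0.349 to 0.376), or 2.76-fold lower in MDA Pca 2b. It ranked 338th by counts among all amplicons in MDA Pca 2b and 81st in LNCaP. MGST1 alone took 48.9% of the counts of the 10 members in MDA Pca 2b and 64.5% in LNCaP.

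MGST2, which can also make leukotriene C4, had 1162 counts in MDA Pca 2b and 2576 in LNCaP. Its ratio was 0.574 (0.536 to 0.616), 1.74-fold lower in MDA Pca 2b and short of the 2-fold call. Both microsomal members were therefore lower in MDA Pca 2b, MGST1 by the larger factor, and their intervals did not overlap.

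GSTA1, the chief alpha class enzyme of liver, which also isomerises steroids, was furthest apart of the 6. It had 30 counts in MDA Pca 2b and 205 in LNCaP, which is 3.52 CPM in MDA Pca 2b against 18.9 CPM in LNCaP. The ratio was 0.186 (0.123 to 0.274), or 5.37-fold lower in MDA Pca 2b (3.65 to 8.16). Its interval lay below those of the other 5 measured members. TTR, one of the hepatocyte genes, was also lower in MDA Pca 2b, with 5 counts in MDA Pca 2b and 84 in LNCaP, but APOB had 321 counts in MDA Pca 2b and 298 in LNCaP, and the part of such genes in the GSTA1 value was not tested.

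GSTA2, the close copy whose promoter window is printed above, had 0 counts in MDA Pca 2b and 2 in LNCaP, so no fold is given. The identifier cell of its amplicon holds the gene numbers of both GSTA2 and GSTA1, whereas the GSTA1 amplicon carries the number of GSTA1 alone. Their coding sequences are 96.7% identical over 669 bases each, so how the counting divided reads between them is uncertain. Even so, reads on the GSTA1 amplicon outnumbered those on the GSTA2 amplicon in both libraries.

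GSTA4, which clears 4-hydroxynonenal and other products of lipid peroxidation, was read far more often than GSTA1. It had 941 counts in MDA Pca 2b and 1583 in LNCaP, 111 CPM in MDA Pca 2b against 146 CPM in LNCaP. The ratio of 0.757 (0.698 to 0.821) lay well inside 2-fold. Its coding sequence shares 63.6% of aligned positions with that of GSTA1 and 63.7% with that of GSTA2. The alpha genes thus differed among themselves: GSTA1 was called lower in MDA Pca 2b and GSTA4 was not, with intervals that did not overlap.

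Along chromosome 6 the alpha genes run in the order GSTA2, GSTA1, GSTA5, GSTA3, GSTA4. The 2 that are not members, GSTA5 and GSTA3, had 1 and 2 counts in MDA Pca 2b and 0 and 1 in LNCaP. Reads in this cluster therefore lay on the amplicon of GSTA4, at one end of it, and to a lesser degree on that of GSTA1. The coding sequence of GSTA1 is 93.6% identical to that of GSTA5 and 92.5% to that of GSTA3. How the counting divided reads among these genes is therefore uncertain too.

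In the mu class, whose members conjugate many aromatic and epoxide compounds, GSTM3 was the member with reads. GSTM3, an enzyme described in brain and testis, had 98 counts in MDA Pca 2b and 324 in LNCaP, which is 11.5 CPM in MDA Pca 2b against 29.9 CPM in LNCaP. Its ratio was 0.385 (0.304 to 0.484), or 2.60-fold lower in MDA Pca 2b. The interval came close to 2-fold, and the call was lost when the libraries were scaled by upper quartile (0.410, 0.323 to 0.515).

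GSTM1, the mu enzyme known for a common whole-gene deletion in human populations, had 2 counts in MDA Pca 2b and 1 in LNCaP. GSTM2, first described in muscle, was at 0 in both libraries, which allows up to 3 counts, or 0.352 CPM in MDA Pca 2b and 0.277 CPM in LNCaP. Neither gene can be placed between the lines with so few counts. The presence of either gene in the DNA of the lines was not tested.

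The mu genes run along chromosome 1 in the order GSTM4, GSTM2, GSTM1, GSTM5, GSTM3. GSTM4 had 6 counts in MDA Pca 2b and 1 in LNCaP, and GSTM5 was at 0 in both, so that GSTM3 alone in the cluster reached 10 counts. GSTM1 and GSTM2 are 90% identical in coding sequence, GSTM1 and GSTM4 92.1%, and GSTM3 stands further off, at 72.4% from GSTM1 and 69.9% from GSTM2. The pseudogene GSTM2P1, chosen after its values were seen, had 105 counts in MDA Pca 2b and 116 in LNCaP, a ratio of 1.15 (0.877 to 1.51). Its transcript is 91.1% identical to the GSTM2 coding sequence over 654 aligned bases, and its amplicon held reads while that of GSTM2 held none.

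**Figure D2:**
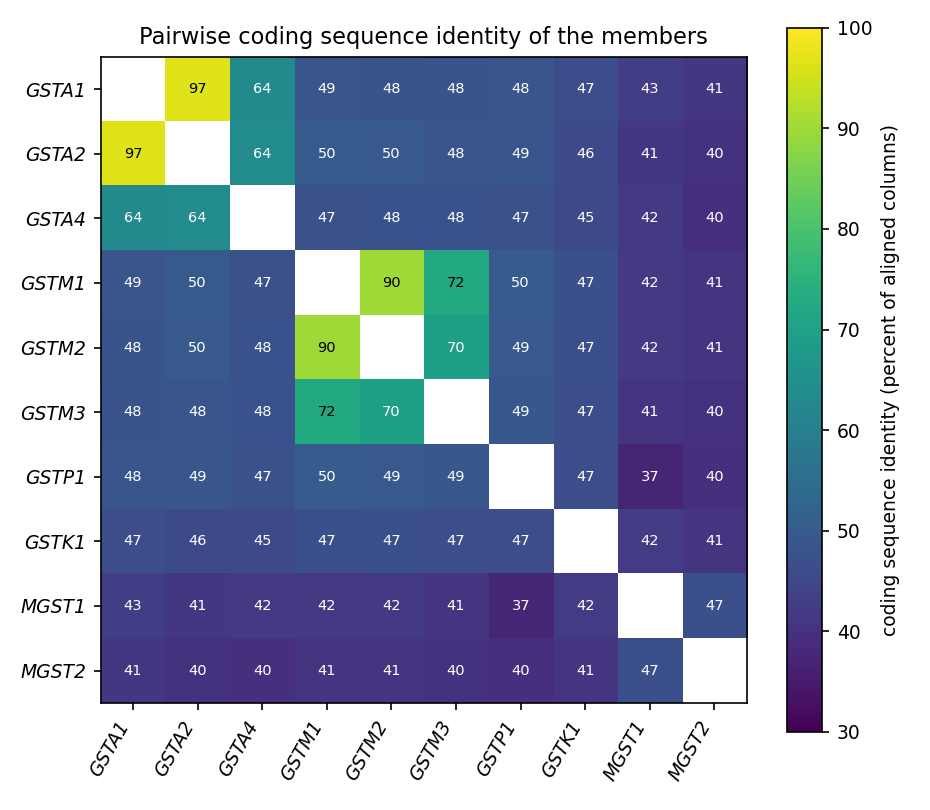
Identity of coding sequences between each pair of members, in percent of aligned columns (colour scale and numbers), in GENCODE release 29. GSTA1 with GSTA2 (96.7%) and GSTM1 with GSTM2 (90%) stand out, and pairs from different classes lie between 37.2% and 50%.

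GSTP1 had 0 counts in MDA Pca 2b and 1 in LNCaP. A count of 0 allows up to 0.352 CPM in MDA Pca 2b, and the 1 count in LNCaP is 0.0923 CPM. Its reads were thus at the limit of counting in both lines, the pattern seen also for GSTM1, GSTM2 and GSTA2. The GSTP1 window printed above holds the sequence TGACTCAGC at bases -66 to -58 from the start. This is a match to TGACNNNGC, the core of the antioxidant response element through which NRF2 acts. The spelling planned first, 1 base longer, had no match in the GSTP1 window.

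Across the 9 members with a promoter window in RefSeq, TGACNNNGC was found on either strand in those of GSTA4, GSTM1 and GSTP1, against 10.9% of all 35116 windows of the same length. The 3 genes that hold it range from 0 counts (GSTP1 in MDA Pca 2b) to 1583 (GSTA4 in LNCaP). The result depended on the spelling, which was changed after the values were seen. The spelling planned first, 1 base longer, was found in the windows of GSTA4, GSTM1 and GSTM2 and not in that of GSTP1. It was also more common, in 35.8% of all 35116 windows. CpG content varied among the members: the windows of GSTA1, GSTA2 and GSTM3 held 1 CpG each, those of GSTA4, GSTM2, GSTK1 and GSTM1 held 11, 14, 15 and 19, and the 3 MGST1 windows 12, 19 and 3, against a median of 11 over all windows.

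GSTK1, the kappa class enzyme of mitochondria and peroxisomes, was nearest to equal. It had 1394 counts in MDA Pca 2b and 2030 in LNCaP, which are 164 CPM in MDA Pca 2b and 187 CPM in LNCaP. The ratio was 0.874 (0.816 to 0.937). By counts GSTK1 was second in MDA Pca 2b, ahead of MGST2, and the third in LNCaP, behind MGST2.

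**Figure D3:**
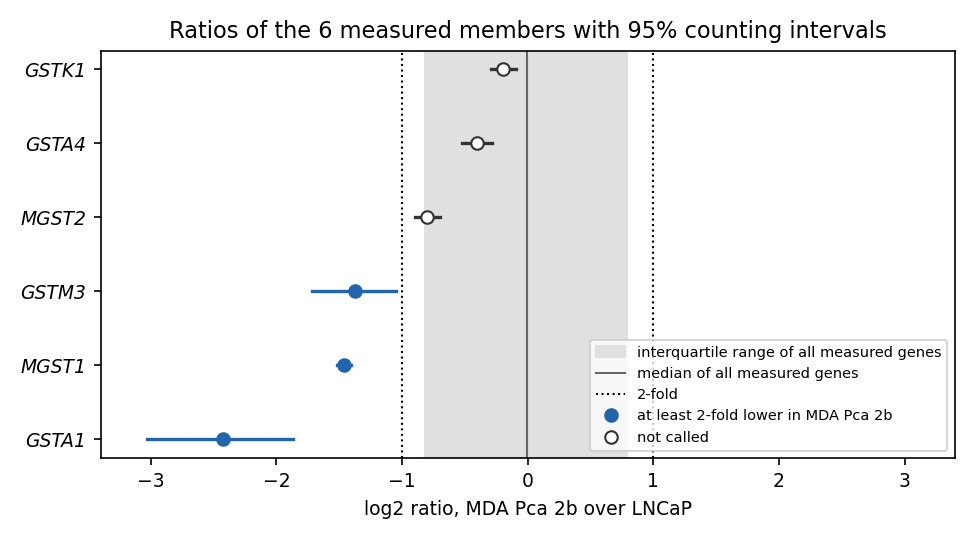
Log2 ratio of MDA Pca 2b over LNCaP for the 6 measured members, with 95% counting intervals, against the median (line) and interquartile range (grey) of all measured genes; dotted lines mark 2-fold. GSTA1, MGST1 and GSTM3 lie wholly beyond 2-fold on the lower side, and GSTK1, GSTA4 and MGST2 do not.

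Ordered by ratio, the measured members ran from GSTA1 through MGST1, GSTM3, MGST2 and GSTA4 to GSTK1. The neighbours MGST1 and GSTM3 overlapped in their intervals, as did GSTA4 and GSTK1, while the steps from GSTA1 to MGST1, from GSTM3 to MGST2 and from MGST2 to GSTA4 exceeded counting error. Ordered by counts, MGST1 came first in both libraries, and GSTA4, GSTM3 and GSTA1 came last in that order. Amplicons differ in how well they amplify, so this order is one of reads and not of transcript copies. The 10 members together held 7104 counts in MDA Pca 2b and 18936 in LNCaP, a summed level of 835 CPM in MDA Pca 2b against 1747 CPM in LNCaP and a ratio of 0.478 (0.465 to 0.491). Without MGST1 the ratio of the sums was 0.687 (0.660 to 0.716).

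The other transferases lay on both sides of equal. Of 17 other transferases and related genes, 10 were measured, 4 with a ratio below 1 and 6 above, and the median log2 ratio was 0.98. In MDA Pca 2b, 5 were called higher and 1 lower, where 10.9% and 13.2% of all measured genes were called higher and lower. The 5 calls and the median count the near-identical GSTT2 and GSTT2B as 2 genes. They also include PTGES, which had few counts in either library and reached 10 only in MDA Pca 2b, where it was higher. MGST3, a further microsomal enzyme, was the one called lower, with 754 counts in MDA Pca 2b and 2885 in LNCaP (3.0-fold lower in MDA Pca 2b, 2.77 to 3.26). MGST1, MGST2 and MGST3 thus each had a ratio of 0.574 or less. GSTO2, an omega class enzyme that reduces dehydroascorbate, had 149 counts in MDA Pca 2b and 25 in LNCaP (7.59-fold higher in MDA Pca 2b, 4.95 to 12.1). The theta class gene GSTT2 had 311 counts in MDA Pca 2b and 153 in LNCaP, and GSTT2B had 341 in MDA Pca 2b and 143 in LNCaP. Both were called higher in MDA Pca 2b, with ratios of 2.59 (2.13 to 3.16) and 3.04 (2.49 to 3.72), but their coding sequences are 99.5% identical and each value is uncertain, so the 2 calls cannot be counted as separate. The identifier cell of the GSTT2B amplicon holds the gene numbers of both, and RefSeq lists GSTT2 as a transcribed pseudogene. GDAP1, a mitochondrial protein with a transferase fold, was called higher too, with a ratio of 2.39 (2.08 to 2.75). PTGES, a prostaglandin E synthase, had 11 counts in MDA Pca 2b and 1 in LNCaP (14-fold higher in MDA Pca 2b, 2.04 to 603). GSTO1 had 206 counts in MDA Pca 2b and 304 in LNCaP, and GSTT1 161 in MDA Pca 2b and 125 in LNCaP, neither called. GSTZ1 and GSTCD, named after their values were seen, had ratios of 0.469 (0.351 to 0.620) and 0.377 (0.260 to 0.535) and were not called.

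For the genes that supply or use glutathione around the transferases, the counts below stand beside 10.9% of all measured genes called higher and 13.2% called lower in MDA Pca 2b. Of 18 genes of glutathione synthesis and turnover, 15 were measured, 1 was called higher and 1 lower in MDA Pca 2b, and the median log2 ratio was 0.13. The cystine carrier subunits were near equal: SLC7A11 had 2255 counts in MDA Pca 2b and 2624 in LNCaP, a ratio of 1.09 (1.03 to 1.16). SLC3A2 had 2964 counts in MDA Pca 2b and 3774 in LNCaP, a ratio of 1.0 (0.953 to 1.05). GGT1, which breaks down extracellular glutathione, was called higher, with a ratio of 7.27 (6.16 to 8.63), though near-identical copies make its value uncertain. GGCT, which acts next in that breakdown, was 3.18-fold lower in MDA Pca 2b (2.91 to 3.47).

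Of 15 glutathione redox genes, 14 were measured, 1 was called higher and 2 lower in MDA Pca 2b, with a median log2 ratio of -0.71. Of the 14, 12 had a ratio below 1, as did 50.1% of all measured genes, so ratios mostly below 1 were not particular to the members. GSR, the reductase that regenerates glutathione, had 1498 counts in MDA Pca 2b and 4095 in LNCaP (2.15-fold lower in MDA Pca 2b, 2.02 to 2.28), and GPX8 had 3 in MDA Pca 2b and 185 in LNCaP (48.4-fold lower in MDA Pca 2b, 16.3 to 237). GPX2, a peroxidase of gut epithelium, had 15 counts in MDA Pca 2b and 1 in LNCaP (19.1-fold higher in MDA Pca 2b, 2.94 to 804). GPX2 passed the minimum count only in MDA Pca 2b and GPX8 only in LNCaP, each the library where it was higher. The minimum thus favoured the direction of both calls, whereas GSR passed it in both libraries. GLO1, which clears methylglyoxal with glutathione, and the peroxidase GPX1 had ratios of 0.550 and 0.698 and were not called. Of 8 conjugate export genes, 4 were measured, and ABCC5, a pump for organic anions, was called higher in MDA Pca 2b (2.24-fold, 2.03 to 2.46). The glutathione conjugate pump ABCC1 had a ratio of 2.01 (1.75 to 2.30) and ABCC4 one of 0.512 (0.433 to 0.603), neither called.

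**Figure D4:**
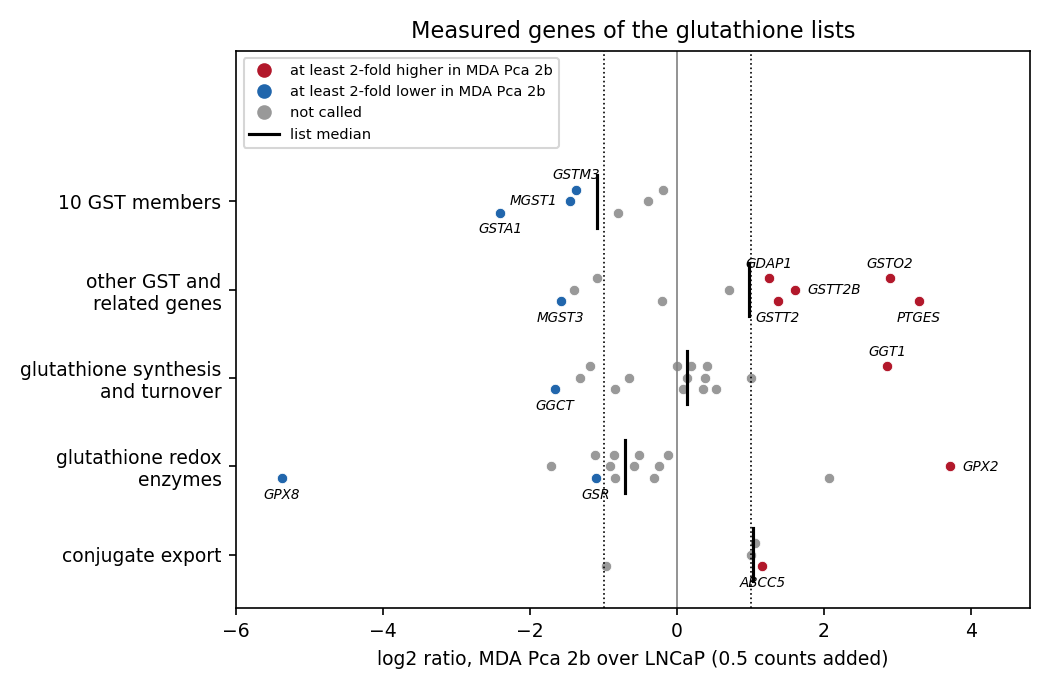
Log2 ratio of MDA Pca 2b over LNCaP for each measured gene of the 10 members and of 4 related lists; red and blue points are called higher and lower in MDA Pca 2b, grey points are not called, and black bars are list medians. The 6 measured members all lie below 0, with a median of -1.09. The other transferases lie on both sides, with a median of 0.98. That median counts the near-identical GSTT2 and GSTT2B as 2 genes and includes PTGES (11 counts in MDA Pca 2b, 1 in LNCaP). Of the 14 measured redox genes, 12 also lie below 0, with a median of -0.71. The medians are 0.13 for glutathione synthesis and turnover and 1.03 for the 4 measured conjugate export genes.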

How the data were processed

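AmpliSeq Transcriptome libraries were made from total RNA of both lines, per the labels' protocols. The authors deposited raw read counts per amplicon, 1 amplicon per gene, with no normalization visible. The submitters' processing notes name hg19 and DESeq without a role; the sources used here do not give the aligner or counting tool. Of 20812 rows, 10 are spike-in controls at 0 and were left out. Counts were scaled by library total and edgeR 4.0.16 TMM factor (0.994 for MDA Pca 2b, 1.01 for LNCaP); 1 count is worth 0.117 and 0.0923 CPM for MDA Pca 2b and LNCaP. Ratios are MDA Pca 2b over LNCaP, with exact Clopper-Pearson 95% intervals conditional on the summed counts; log2 ratios in medians have 0.5 counts added. Reads carry no molecular identifiers, so intervals and limits of 3 counts cover counting error only. No p-value was computed. Coding sequences are GENCODE 29 principal transcripts aligned with Biopython 1.88. Members, lists and thresholds were chosen with earlier results of these data known. Named are the 10 members and, from the other lists, genes called apart plus the 2 with most counts not called; the remaining GSTA and GSTM genes, GSTM2P1, the motif TGACNNNGC (in place of a spelling 1 base longer) and the use of 250 bases before the start were added after the values were seen. Some marker genes are not analysed here. The interval and call steps were tested on simulated counts that held counting error only, so this check does not cover spread between cultures. Amplicon positions are not used here, so a sequence difference under a primer could lower a value in one line.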

Additional observations from a re-analysis of the deposited data

How the results depend on the processing

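Of the 12 alternatives, 5 could move a ratio (4 other scalings and thinning to 1 depth), and under these the 6 measured members kept ratios below 1 (0.181 to 0.198 for GSTA1, 0.352 to 0.386 for MGST1, 0.374 to 0.410 for GSTM3, 0.558 to 0.611 for MGST2, 0.736 to 0.805 for GSTA4, 0.850 to 0.930 for GSTK1). Members called lower in MDA Pca 2b numbered 3, but 1 (GSTA1) with an assumed spread of 20% between cultures, 0 with 40%, and 1 at a 3-fold threshold. GSTM3 also lost its call under upper quartile scaling and with a 99% interval. At 1.5-fold MGST2 was called lower too. Of all measured genes, 13.2% were called lower in the main setting, and 6.48% and 3.53% with assumed spreads of 20% and 40%. The share was 6.21% at 3-fold, 22.5% at 1.5-fold, 11.9% under upper quartile scaling and 11.5% with a 99% interval. Over all genes 3477 were called apart, against 1809 and 1048 with assumed spreads of 20% and 40%, 6018 at 1.5-fold and 1746 at 3-fold. Without the minimum of 10 counts the median of the other transferases was 1.17 in place of 0.98, and conjugate export genes called higher numbered 2 in place of 1. No paired analysis was possible because each line has 1 library, which also leaves no replicate to leave out. GSTA2, GSTM1, GSTM2 and GSTP1 had counts of 2 or fewer, which give no direction. What kept these counts low was not tested.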
